A study of Mus musculus with 6 samples.

Results

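The mitochondrial carrier family comprises the SLC25 carriers and the uncoupling proteins, to which the outer membrane relatives Mtch1 and Mtch2 were added. Its members were taken as every row whose symbol was Slc25a followed by a number, or was Ucp1, Ucp2, Ucp3, Mtch1 or Mtch2. The rule found 50 genes among 17710 genes listed in any library, whereas Ucp3 and Slc25a54 had no row. They were compared between extraembryonic endoderm (XEN) cells and embryonic stem (ES) cells of the mouse, both grown without feeder cells under normal conditions. XEN cells are a self-renewing cell type of the lineage that gives rise to yolk sac endoderm. Here they had the ICR strain background and grew in RPMI1640 with 15% FBS, Glut and BME. ES cells stand for the pluripotent epiblast. They had the 129/Ola background and grew on 0.1% gelatin in N2B27-2iLIF. Each cell type gave 3 libraries of total RNA, named A, B and C, which were sequenced on a BGISEQ-500 instrument. The effects of strain, culture medium and cell type cannot be told apart, because they differ together. Whether libraries A, B and C were separate cultures is not stated in the labels, so p-values measure only the spread between these libraries, which may be technical.

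Carriers of the SLC25 family sit in the inner mitochondrial membrane and exchange nucleotides, phosphate, organic acids, amino acids and cofactors between the cytosol and the matrix. Carriers are inserted there by a dedicated import route, and many substrates are served by paralogs that differ in tissue distribution or in control by calcium. Uncoupling proteins belong to the same family, and a few relatives lie in the outer membrane or in the peroxisome instead.

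The libraries held 21134720 to 22375875 expected counts in XEN cells and 20675311 to 22037793 in ES cells, so that 3 counts in 1 library came to 0.130 to 0.149 TMM-scaled CPM, counts scaled to library size. The 8 markers of XEN cells summed to 10070 to 11961 CPM in XEN libraries and to 105 to 118 CPM in ES libraries, and the 8 markers of ES cells to 2.60 to 2.87 CPM and 5618 to 5769 CPM in XEN and ES libraries. Of 8 trophoblast markers, Hand1 and Prl3d1 were at 0 in both cell types, and the list summed to 699 to 746 CPM in XEN libraries, most of it Krt8, and to 126 to 127 CPM in ES libraries. Fibroblast markers stayed within 7.25 to 9.51 CPM in XEN and 6.5 to 6.63 CPM in ES libraries, mesoderm and neural markers within 12.3 to 16.0 CPM and 28.4 to 30.4 CPM, and fat markers, most of them Pparg in XEN cells, within 7.23 to 8.99 CPM and 0.609 to 0.654 CPM. Lum and Twist2 of the fibroblast list and Fabp4 and Plin1 of the fat list were at 0 in both cell types. Adipoq and Ucp1 of the fat list were at 0 in XEN cells alone. The part of other cell types in the results below was not tested. In bulk RNA, fewer cells that express a gene and less of its RNA per cell cannot be told apart.

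Carrier transcripts made up 0.242% ± 0.00498 of the counts in XEN libraries and 0.327% ± 0.00103 in ES libraries (SD, n = 3 each). Per length, in the authors' FPKM (fragments per kilobase of transcript, scaled to library size), the 50 genes summed to between 1442 and 1500.1 in XEN libraries and to between 1819 and 1830 in ES libraries, without overlap. FPKM over all genes also summed lower in XEN libraries (485336 to 504981) than in ES libraries (538506 to 547993). The family was uneven in both cell types. The 4 most abundant genes of each cell type held 67.1% ± 0.0777 of the family's FPKM in XEN libraries and 58.5% ± 0.449 in ES libraries. In XEN cells they were Slc25a3, Slc25a5, Slc25a4 and Slc25a39. In ES cells they were Slc25a5, Slc25a3, Slc25a39 and Ucp2. At the other end, 14 genes in XEN cells and 13 in ES cells averaged under 1 FPKM.

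Of the 50 genes, 42 passed the filter on low counts and were tested by the edgeR quasi-likelihood test, with p-values adjusted over all 13581 genes tested. 37 passed an adjusted p of 0.05, a share of 88.1% that lay beside 88.7% of all tested genes. 15 were higher in XEN cells (35.7%, against 42.0% of all tested genes) and 22 were lower (52.4%, against 46.7%). Slc25a3, Slc25a11, Slc25a14, Slc25a26 and Slc25a53 did not pass. The median log2 fold change of XEN over ES cells was -0.33 over the 42 genes and -0.07 over all tested genes, and the median size of the change, sign aside, was 0.77 against 0.92. Since most genes differed between the cell types, each was also tested against a change of 2-fold. There 16 carrier genes passed (38.1%, against 42.7% of all tested genes), 6 of them higher in XEN cells (14.3%, against 19.3%) and 10 lower (23.8%, against 23.4%). In 37 of the 42 genes (88.1%) the CPM of XEN and ES libraries did not overlap, as in 89.4% of all tested genes. 4 of the tested genes, Slc25a27, Slc25a43, Slc25a47 and Slc25a48, reached the filter in ES cells alone, so the filter itself favoured a difference in them. Among the 38 that reached it in both cell types, 15 were higher, 18 lower and 5 did not pass. Of the 11115 tested genes that reached that mean level in both, 86.6% passed, 45.2% higher and 41.4% lower. Past 2-fold, 6 of the 38 were higher and 7 lower. The share of all genes at that level past 2-fold was not computed.

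**Figure D1:**
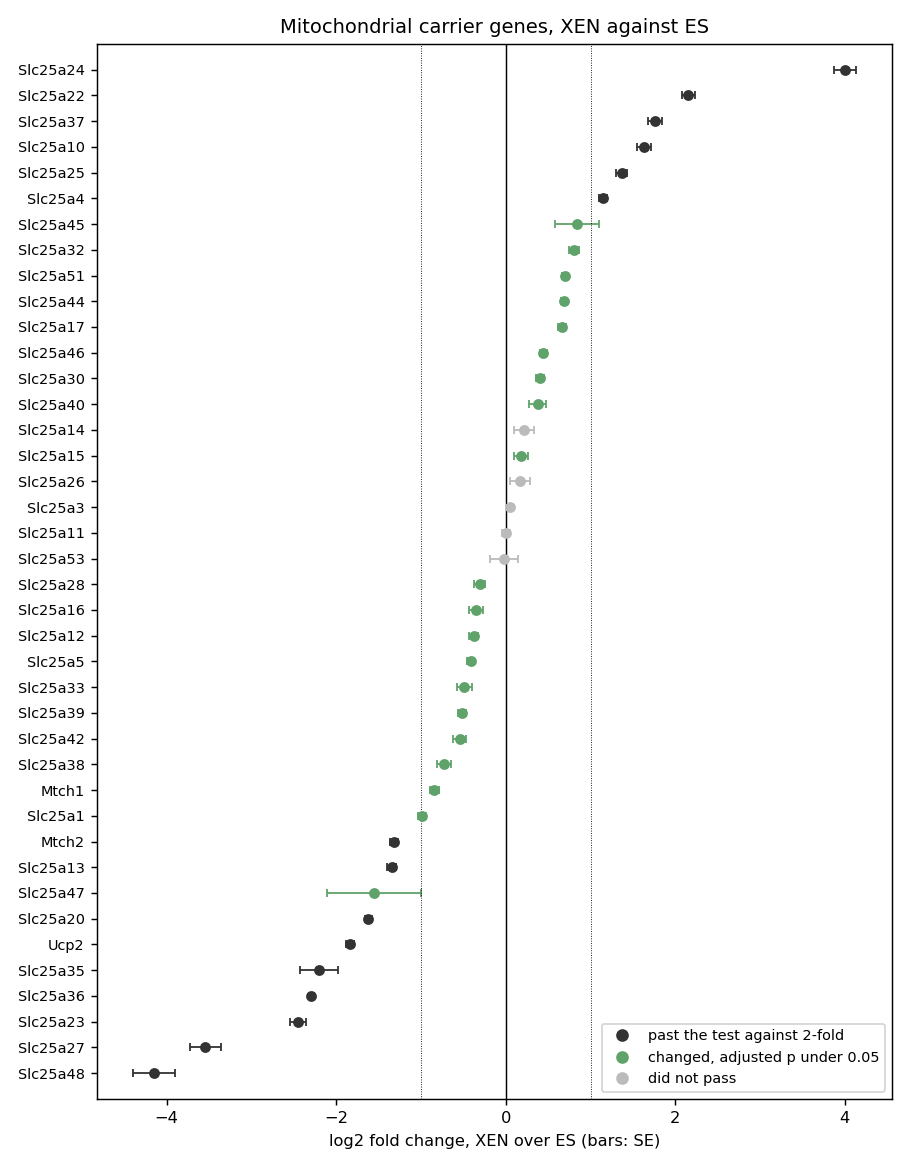
Log2 fold change of XEN over ES cells for 40 of the 42 tested carrier genes, from the highest to the lowest; points are the fitted values, bars are standard errors and dotted lines mark 2-fold. Slc25a43 is not drawn because its 3 XEN libraries held 0 counts. The bars understate the error of genes with few counts, such as Slc25a48 and Slc25a27. Slc25a24 stands at the top at 4.0 and Slc25a48 at the bottom at -4.15, and most genes lie within the dotted lines.

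**Figure D2:**
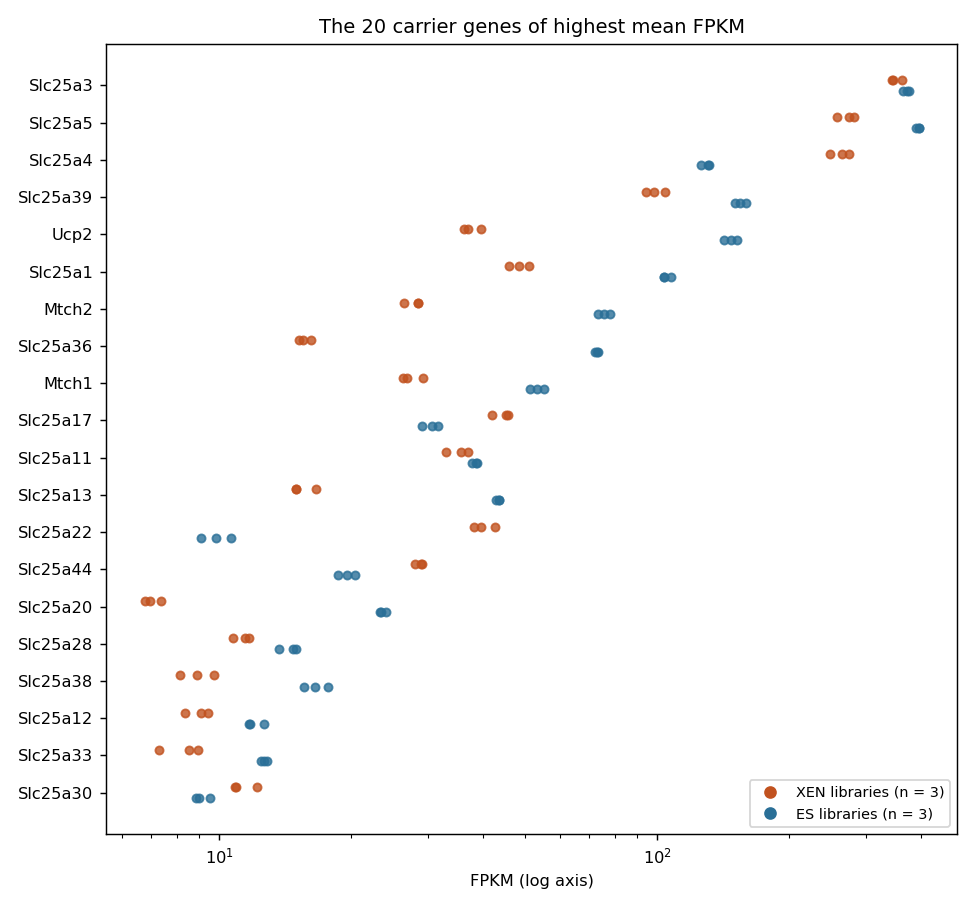
FPKM on a log axis for the 20 carrier genes of highest mean, one point per library, with XEN libraries above ES libraries in each row. Ucp2, Slc25a36 and Mtch2 have all XEN points to the left of the ES points, Slc25a4 and Slc25a22 have them to the right, and Slc25a3 has them close together.

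The ADP/ATP carriers, which export ATP made in the matrix in exchange for cytosolic ADP, had overlapping sums of FPKM in XEN and ES libraries, while their 2 main paralogs changed in opposite directions. Slc25a4 (gene 11739), the isoform that dominates in heart and muscle, had 248, 274 and 265 FPKM in XEN libraries A, B and C, against 131, 126 and 130.4 FPKM in ES libraries A, B and C. All 3 XEN values were above all 3 ES values, and the log2 fold change from the counts was 1.15 ± 0.04 (SE; edgeR adjusted p = 2.03e-16). Slc25a5 (gene 11740), the isoform common in dividing cells and encoded on the X chromosome, had 281, 274 and 257 FPKM in XEN libraries, against 396, 396 and 390 FPKM in ES libraries. It was lower in each XEN library than in any ES library, with a log2 fold change of -0.41 ± 0.04 (edgeR adjusted p = 3.79e-09). Slc25a5 has processed pseudogenes in the mouse, and reads that such copies share with the gene cannot be told apart here. Slc25a4 made 49.2% ± 2.09 of the FPKM of the pair in XEN cells and 24.7% ± 0.51 in ES cells (SD, n = 3 each). The log2 ratio of Slc25a4 to Slc25a5, in CPM + 1, was 1.55 ± 0.07 (SE) higher in XEN cells, and the libraries did not overlap (exact two-sided permutation p = 0.1, and 0.127 adjusted over 14 gene pairs). No smaller p is possible with 3 against 3 libraries. The ADP/ATP carriers together summed to 532.5 ± 13.3 FPKM in XEN cells and 523 ± 3.53 FPKM in ES cells, with overlapping libraries (exact permutation p = 0.3), while their summed TMM-scaled CPM was 40.9 higher in XEN cells without overlap (exact permutation p = 0.1). The third paralog, Slc25a31, known from germ cells and not tested for its low counts, had 0 counts in all 3 XEN libraries and 11, 12 and 10 counts in ES libraries. Against 3 counts over the XEN group, it was 10.2-fold lower in XEN cells.

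The 250 bases before the start of both genes are shown because the pair changed in opposite directions. They are from RefSeq (GRCm38.p6, a later build than the mm9 of the data), 5′ to 3′ on the strand of the gene. Slc25a4 lies at chr8:46211063-46211312 on the minus strand and Slc25a5 at chrX:36795347-36795596 on the plus strand. Bases shortly after each start were looked for in GENCODE transcripts of the same gene. For Slc25a4 1 transcript held them and for Slc25a5 0 did. The start of Slc25a5, and positions counted from it, were therefore not borne out by that check. Capitals mark matches to 1 of 5 motifs searched on both strands.
Slc25a4 promoter: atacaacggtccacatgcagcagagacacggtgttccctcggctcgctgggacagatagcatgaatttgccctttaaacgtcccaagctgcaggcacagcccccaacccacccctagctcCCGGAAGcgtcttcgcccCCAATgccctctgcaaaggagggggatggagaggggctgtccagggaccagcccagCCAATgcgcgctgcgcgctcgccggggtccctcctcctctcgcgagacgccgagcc
Slc25a5 promoter: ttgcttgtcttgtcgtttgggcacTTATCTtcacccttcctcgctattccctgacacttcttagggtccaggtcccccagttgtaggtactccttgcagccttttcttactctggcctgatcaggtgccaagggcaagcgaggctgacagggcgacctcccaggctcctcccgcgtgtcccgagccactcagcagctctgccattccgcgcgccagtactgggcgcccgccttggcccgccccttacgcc
The Slc25a4 window held 1 ETS motif (CCGGAAG) starting 130 bases before the start and a pair of CCAAT motifs, at 112 and 56 bases before it. The Slc25a5 window held 1 GATA motif (AGATAA), on the opposite strand, which reads as TTATCT in the sequence, at 226 bases before the start. No 2 motif matches overlapped in the sequences printed here. Over the 39 carrier genes with a window of this kind, 6 held the ETS motif, 7 an E-box (CACGTG), 2 the GATA motif, 18 the CCAAT motif and 0 the NRF1 motif (GCGCATGCGC). Over 27025 genes the shares with a match were 7.83% for the ETS motif, 6.86% for the E-box, 11.4% for the GATA motif, 37.5% for the CCAAT motif and 0.877% for the NRF1 motif. Counted per window in the same order, the shares were 12%, 16%, 4%, 42% and 0% of the 50 windows of carrier genes. Over all 32851 windows they were 6.91%, 6.02%, 9.99%, 33.8% and 0.782%. These differences were not tested. A match is a run of letters and not a measured binding site.

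Slc25a3, the phosphate carrier that supplies the ATP synthase, was the most abundant member in XEN cells. It had 346, 362 and 343 FPKM in XEN libraries, against 376, 371 and 363 FPKM in ES libraries. The FPKM of XEN libraries lay just under that of ES libraries, whereas in CPM the groups overlapped. Its log2 fold change from the counts was 0.05 ± 0.02 (edgeR adjusted p = 0.234), and the sign of this small difference changed with the scaling: it was called lower with upper-quartile factors (edgeR adjusted p = 0.0229) and without composition factors (adjusted p = 0.0411).

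The ATP-Mg/phosphate carriers move adenine nucleotides in and out of the matrix, most of them under control of cytosolic calcium. They held the pair of paralogs whose ratio differed most among the 11 pairs with both genes tested. Slc25a24 (gene 229731) was the gene with the largest called rise of the family. It had 6.19, 5.87 and 5.79 FPKM in XEN libraries, against 0.37, 0.49 and 0.36 FPKM in ES libraries. The XEN values were 16.1-fold higher from the counts, a log2 fold change of 4.0 ± 0.13 (edgeR adjusted p = 9.61e-18). Its paralog Slc25a23 (gene 66972) moved the other way, with 1.33, 1.48 and 1.17 FPKM in XEN libraries, against 7.70, 8.02 and 8.08 FPKM in ES libraries, and fell by 2.45 ± 0.09 on the log2 scale (edgeR adjusted p = 2.75e-16). The third paralog, Slc25a25 (gene 227731), had 9.67, 11.2 and 10.9 FPKM in XEN libraries, against 4.29, 4.60 and 4.33 FPKM in ES libraries. Its log2 fold change was 1.37 ± 0.07 (edgeR adjusted p = 9.07e-14). Of the FPKM of Slc25a23 and Slc25a24 together, Slc25a23 made 18.2% ± 1.72 in XEN cells and 95.1% ± 0.786 in ES cells. The log2 ratio of Slc25a23 to Slc25a24 averaged -1.96 ± 0.14 in XEN and 3.51 ± 0.13 in ES libraries, a difference of -5.47 ± 0.11 (SE), and that of Slc25a25 to Slc25a24 differed by -1.94 ± 0.11 (exact permutation p = 0.1 each). With other pseudocounts, and in FPKM + 1, the difference of Slc25a23 to Slc25a24 ran from -6.35 to -3.67. That of Slc25a25 to Slc25a24 ran from -2.56 to -0.92. The group summed to 17.9 ± 0.67 FPKM in XEN cells and 12.8 ± 0.415 FPKM in ES cells, without overlap. Slc25a41, the fourth paralog, had 1 count over the XEN libraries and 2 over the ES libraries, too few to compare.

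The window before Slc25a24, chr3:109122899-109123148 on the plus strand of the same build, is shown as that of the largest rise. It held none of the 5 motifs, which says only that these letters are absent there, and 72.8% of its bases were G or C.
Slc25a24 promoter: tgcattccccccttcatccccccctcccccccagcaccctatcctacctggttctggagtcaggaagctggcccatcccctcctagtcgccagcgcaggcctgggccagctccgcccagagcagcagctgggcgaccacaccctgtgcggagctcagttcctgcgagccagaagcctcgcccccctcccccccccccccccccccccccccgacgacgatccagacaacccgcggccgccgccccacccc

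**Figure D3:**
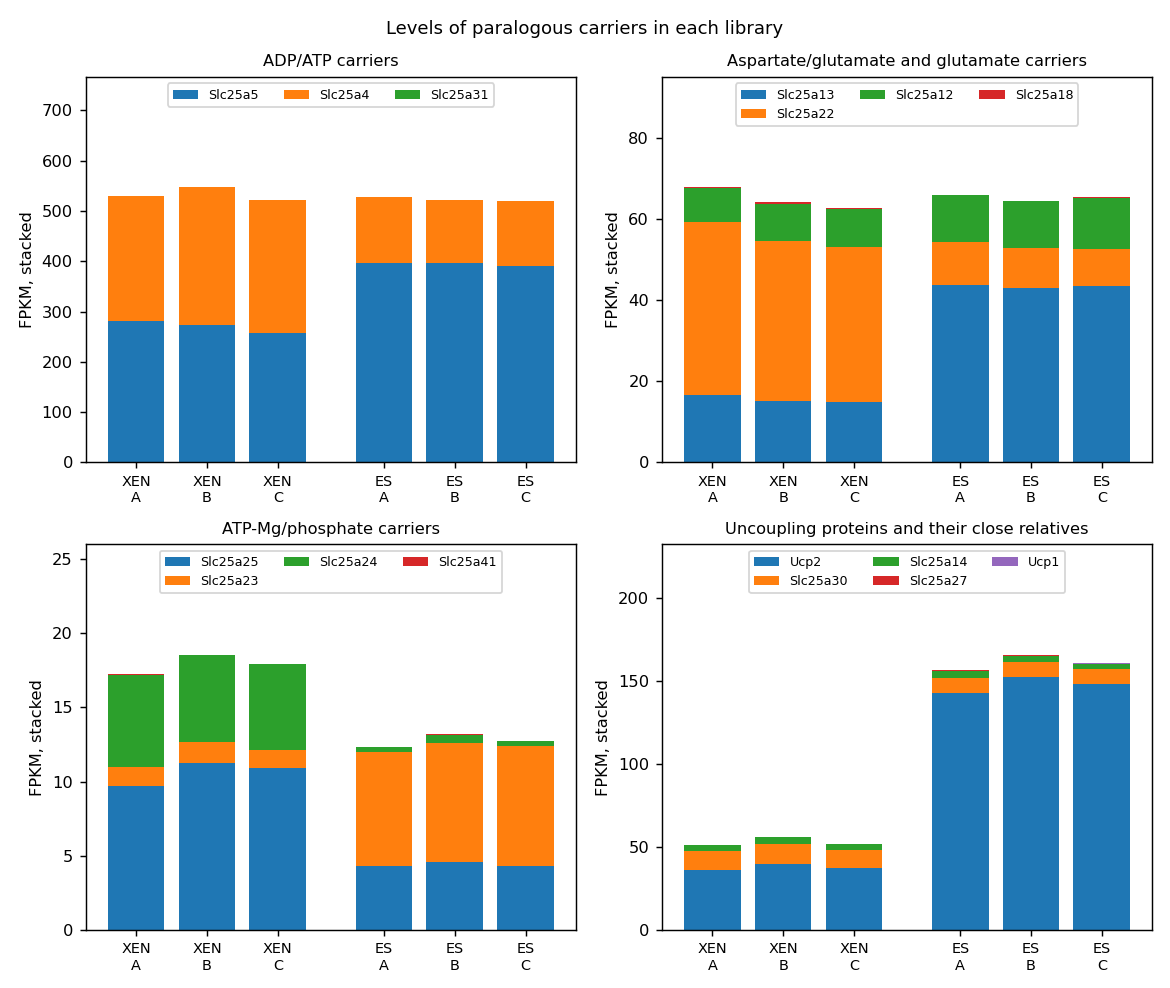
Stacked FPKM of the paralogs of 4 substrate groups in each library, XEN libraries on the left of each panel and ES libraries on the right. The ADP/ATP and the aspartate/glutamate panels have columns of nearly equal height that are divided differently, the ATP-Mg/phosphate panel is led by Slc25a25 and Slc25a24 in XEN and by Slc25a23 in ES libraries, and the uncoupling protein panel is mostly Ucp2.

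Aspartate and glutamate carriers likewise had overlapping sums of FPKM and a different make-up. Slc25a13 (gene 50799), known as citrin and a part of the malate-aspartate shuttle, had 16.7, 15.0 and 15.0 FPKM in XEN libraries, against 43.6, 43.0 and 43.5 FPKM in ES libraries. It fell by 1.35 ± 0.05 on the log2 scale (edgeR adjusted p = 9.26e-17). Slc25a12, or aralar, which carries out the same exchange, had 8.36, 9.08 and 9.45 FPKM in XEN libraries, against 11.7, 11.7 and 12.7 FPKM in ES libraries. It fell by only 0.38 ± 0.06 (edgeR adjusted p = 5.81e-06), so that the log2 ratio of Slc25a12 to Slc25a13 was 0.96 ± 0.10 higher in XEN cells (exact permutation p = 0.1, no overlap). Slc25a22 (gene 68267), which imports glutamate with a proton, had 42.6, 39.6 and 38.1 FPKM in XEN libraries, against 10.6, 9.82 and 9.11 FPKM in ES libraries. It rose 4.44-fold (log2 fold change 2.15 ± 0.08, edgeR adjusted p = 2.91e-18) and was the 7th most abundant member in XEN cells and the 20th in ES cells. Slc25a18, its paralog, had 7, 10 and 6 counts in XEN libraries and 0, 0 and 2 counts in ES libraries, 12.4 times as many at equal library size, with exact Clopper-Pearson 95% bounds of 3.06 and 108. Such bounds reflect counting error alone, and folds against 3 counts leave out the counting error of the other group. The 4 genes summed to 64.9 ± 2.62 FPKM in XEN cells and 65.3 ± 0.699 FPKM in ES cells (exact permutation p = 0.9). Slc25a13 made 24.0% of that sum in XEN cells and 66.5% in ES cells.

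Ucp2 (gene 22228), an uncoupling protein linked to the export of C4 acids from the matrix and the member of its group that was detected in both cell types at high level, was much lower in XEN cells. It had 36.2, 39.7 and 37.0 FPKM in XEN libraries, against 142, 152 and 148 FPKM in ES libraries. These values did not overlap and the counts fell 3.59-fold (edgeR adjusted p = 1.49e-19). Ucp1, the thermogenic protein of brown fat, had 0 counts in all XEN libraries and 7, 8 and 6 counts in ES libraries. Against 3 counts over the XEN group, it was 6.51-fold lower in XEN cells. Slc25a27, a brain-enriched relative also called UCP4, had 7, 5 and 5 counts in XEN libraries, against 80, 77 and 60 counts in ES libraries. It fell by 3.54 ± 0.18 on the log2 scale (edgeR adjusted p = 1.29e-10), with an SE that is too small at so few XEN counts. Slc25a27 reached the filter in ES cells alone, so its p-value adds no support. Slc25a30, another relative, had 10.9, 12.2 and 10.9 FPKM in XEN libraries, against 9.52, 8.85 and 8.99 FPKM in ES libraries (log2 fold change 0.40 ± 0.05, edgeR adjusted p = 2.28e-06). Slc25a14, which is close to Slc25a30 in sequence, had 3.74, 3.82 and 3.89 FPKM in XEN libraries, against 3.83, 3.68 and 2.99 FPKM in ES libraries (0.21 ± 0.12, edgeR adjusted p = 0.135). The log2 ratio of Slc25a14 to Slc25a30 differed by -0.21 ± 0.12, with overlapping libraries (exact permutation p = 0.3). The group summed to 52.8 ± 2.57 FPKM in XEN cells and 160.8 ± 4.67 FPKM in ES cells.

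Among the carriers of organic acids, Slc25a1 (gene 13358), which exports citrate for lipid synthesis, had 46.0, 51.0 and 48.3 FPKM in XEN libraries, against 103.5, 103.8 and 107 FPKM in ES libraries. The XEN values lay well below the ES values, and the log2 fold change of -0.99 ± 0.04 passed the test of any change (edgeR adjusted p = 5.74e-15) but not the test against 2-fold (adjusted p = 0.72). Slc25a10 (gene 27376), the dicarboxylate carrier that exchanges malate or succinate for phosphate, had 6.60, 7.92 and 7.22 FPKM in XEN libraries, against 2.67, 2.45 and 2.57 FPKM in ES libraries. It rose by 1.63 ± 0.08 on the log2 scale (edgeR adjusted p = 3.25e-14). Slc25a11, which exchanges oxoglutarate for malate, had 33.0, 35.6 and 37.1 FPKM in XEN libraries, against 38.9, 38.6 and 37.7 FPKM in ES libraries, with a log2 fold change from the counts of 0.0040 ± 0.05 (edgeR adjusted p = 0.938) whose sign changed with the scaling. It was called lower with upper-quartile factors (edgeR adjusted p = 0.00997), without composition factors (edgeR adjusted p = 0.0154) and in limma-trend on FPKM (adjusted p = 0.0291). The log2 ratio of Slc25a10 to Slc25a11 was 1.53 ± 0.07 higher in XEN cells without overlap (exact permutation p = 0.1), while Slc25a11 remained 4.86 times as abundant as Slc25a10 in FPKM in XEN cells and 15.0 times in ES cells. Slc25a21, the oxodicarboxylate carrier, had 0 counts over the XEN libraries and 1 over the ES libraries.

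Pyrimidine nucleotide carriers were led by Slc25a36 (gene 192287), which had the smallest adjusted p of the family. It had 16.2, 15.6 and 15.2 FPKM in XEN libraries, against 73.3, 72.3 and 72.9 FPKM in ES libraries. The replicates of each cell type were close, and the log2 fold change was -2.29 ± 0.03 (edgeR adjusted p = 4.8e-22). Slc25a33, its growth-responsive paralog, had 8.95, 8.54 and 7.28 FPKM in XEN libraries, against 12.9, 12.5 and 12.7 FPKM in ES libraries, and fell by 0.49 ± 0.09 (edgeR adjusted p = 6.22e-06). The smaller fall of Slc25a33 put the log2 ratio of Slc25a33 to Slc25a36 1.81 ± 0.06 higher in XEN cells (exact permutation p = 0.1, no overlap). 1 unnamed gene model carried the description of Slc25a36, with at most 1.47 expected counts in an XEN library and 16.1 in an ES library. The window before Slc25a36, chr9:97111042-97111291 on the minus strand, is shown as that of the fall with the smallest adjusted p, and it held an E-box 187 bases and a CCAAT motif 142 bases before the start.
Slc25a36 promoter: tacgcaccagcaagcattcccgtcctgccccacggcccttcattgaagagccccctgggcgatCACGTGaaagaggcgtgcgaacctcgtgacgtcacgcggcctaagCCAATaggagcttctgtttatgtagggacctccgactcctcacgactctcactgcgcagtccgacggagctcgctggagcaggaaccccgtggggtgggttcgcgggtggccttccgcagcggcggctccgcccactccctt

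Other carriers of nucleotides, coenzymes and vitamins changed less than Slc25a36. Slc25a32, which imports folate, Slc25a17, which carries coenzyme A and related cofactors in the peroxisome, and Slc25a51, the mitochondrial NAD+ carrier, were higher in XEN cells by log2 fold changes of 0.80 ± 0.06, 0.67 ± 0.05 and 0.69 ± 0.04. Slc25a17 was the most abundant of them, with 42.0, 45.6 and 45.1 FPKM in XEN libraries, against 29.1, 30.7 and 31.6 FPKM in ES libraries. Slc25a16 and Slc25a42, both linked to coenzyme A transport, fell by 0.35 ± 0.09 and 0.54 ± 0.08. Slc25a42 had 2.34, 2.30 and 2.37 FPKM in XEN libraries, against 3.63, 4.11 and 3.43 FPKM in ES libraries. Slc25a16 had 5.16, 5.42 and 6.07 FPKM in XEN libraries, against 7.23, 8.13 and 7.87 FPKM in ES libraries. Both were lower in each XEN library than in any ES library, while their log2 ratio, Slc25a42 over Slc25a16, differed by -0.15 ± 0.09 with overlapping libraries (exact permutation p = 0.2). Slc25a26, which imports S-adenosylmethionine, did not pass (log2 fold change 0.17 ± 0.12, edgeR adjusted p = 0.117), although it did without XEN library A (0.27, edgeR adjusted p = 0.0193). The 9 genes summed to 106 ± 2.31 FPKM in XEN cells and 155 ± 1.11 FPKM in ES cells.

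The mitoferrins import iron for heme and iron-sulfur cluster synthesis. Slc25a37 (gene 67712), mitoferrin 1, which is prominent in developing red cells, had 10.2, 10.2 and 10.5 FPKM in XEN libraries, against 3.46, 3.62 and 3.07 FPKM in ES libraries. It rose by 1.76 ± 0.08 on the log2 scale (edgeR adjusted p = 9.43e-17). Slc25a28, the more widely expressed mitoferrin 2, had 11.5, 11.7 and 10.8 FPKM in XEN libraries, against 15.0, 14.8 and 13.7 FPKM in ES libraries, and fell by 0.31 ± 0.06 (edgeR adjusted p = 2.29e-04). Slc25a37 made 47.7% ± 1.41 of the FPKM of the pair in XEN cells and 18.9% ± 0.689 in ES cells, and the log2 ratio of Slc25a37 to Slc25a28 was 2.01 ± 0.06 higher in XEN cells (exact permutation p = 0.1, no overlap). Slc25a39 (gene 68066), which imports glutathione, had 94.3, 98.4 and 104 FPKM in XEN libraries, against 150.2, 159.9 and 155 FPKM in ES libraries, and fell by 0.52 ± 0.05 (edgeR adjusted p = 2.27e-10). Its paralog Slc25a40 had 4.78, 5.02 and 5.06 FPKM in XEN libraries, against 3.90, 4.74 and 3.87 FPKM in ES libraries, and rose by 0.37 ± 0.10 (edgeR adjusted p = 8.86e-04). Slc25a39 was 19.97 times as abundant as Slc25a40 in FPKM in XEN cells and 37.2 times in ES cells. Their log2 ratio, Slc25a40 over Slc25a39, was 0.87 ± 0.07 higher in XEN cells (exact permutation p = 0.1, no overlap).

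Among carriers of carnitine and amino acids, Slc25a20 (gene 57279), which brings acylcarnitines into the matrix for fatty acid oxidation, had 7.37, 6.94 and 6.76 FPKM in XEN libraries, against 23.5, 24.0 and 23.3 FPKM in ES libraries. It fell by 1.62 ± 0.04 on the log2 scale (edgeR adjusted p = 1.01e-15). Slc25a38, which imports glycine for heme synthesis, fell by 0.73 ± 0.09, and Slc25a44, a carrier of branched-chain amino acids, rose by 0.68 ± 0.04. The ornithine carrier Slc25a15 had 8.01, 8.10 and 7.51 FPKM in XEN libraries, against 7.40, 7.01 and 8.45 FPKM in ES libraries. These groups overlapped, and its log2 fold change of 0.18 ± 0.09 (edgeR adjusted p = 0.0228) lost the call without XEN library B, without ES library A or without ES library B (adjusted p = 0.065 to 0.148). It was also lost with upper-quartile factors, without composition factors, in DESeq2 and in limma-trend on FPKM. Its low paralog Slc25a2 had 4 counts over the XEN libraries and 7 over the ES libraries, a ratio of 0.615 (95% bounds 0.132 and 2.42). Slc25a29, which carries basic amino acids, had 27 and 26 counts over the XEN and ES libraries, a ratio of 1.12 (95% bounds 0.628 and 1.99).

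In the outer membrane, Mtch2 (gene 56428), a protein insertase and receptor of the apoptosis factor Bid, had 28.4, 28.4 and 26.4 FPKM in XEN libraries, against 73.4, 75.6 and 78.2 FPKM in ES libraries. It fell by 1.32 ± 0.04 on the log2 scale (edgeR adjusted p = 3.86e-17). Mtch1 (gene 56462) had 26.3, 29.1 and 26.9 FPKM in XEN libraries, against 51.3, 53.1 and 55.1 FPKM in ES libraries, and fell by 0.84 ± 0.06 (edgeR adjusted p = 6.15e-13). Both were lower in each XEN library than in any ES library, with the log2 ratio of Mtch1 to Mtch2 0.48 ± 0.06 higher in XEN cells (exact permutation p = 0.1, no overlap). Slc25a46, which takes part in mitochondrial shape and lipid transfer, rose by 0.44 ± 0.04. The 3 genes summed to 65.8 ± 2.43 FPKM in XEN cells and 137 ± 4.49 FPKM in ES cells.

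Members whose substrate is unsettled were mostly low. Slc25a43 (gene 194744), on the X chromosome, had 0 counts in all XEN libraries and 25, 14 and 20 counts in ES libraries. Against 3 counts over the XEN group, it was 18.3-fold lower in XEN cells. Slc25a48 had 1, 3 and 2 counts in XEN libraries, against 45, 36 and 40 counts in ES libraries. It fell by 4.15 ± 0.24 on the log2 scale (edgeR adjusted p = 2.23e-09), with an SE that is too small at so few XEN counts. Slc25a48 reached the filter in ES cells alone, so its p-value adds no support. Slc25a35 had 0.57, 0.83 and 0.47 FPKM in XEN libraries, against 3.08, 3.26 and 3.16 FPKM in ES libraries, and fell by 2.20 ± 0.22 (edgeR adjusted p = 4.17e-10). Each XEN value of these genes was below 1 FPKM. Slc25a34 had 0 counts in all XEN libraries and 2, 9 and 8 counts in ES libraries, 5.89-fold lower against 3 counts over the XEN group. Slc25a47 had 7, 1 and 6 counts in XEN libraries, against 16, 18 and 11 counts in ES libraries. It passed the test of any change (edgeR adjusted p = 0.00368) but not the test against 2-fold. Like Slc25a43 and Slc25a48, it reached the filter in ES cells alone, which favoured that call. Slc25a45 had 27, 20 and 15 counts in XEN libraries, against 15, 10 and 12 counts in ES libraries, and its call (log2 fold change 0.84 ± 0.26, edgeR adjusted p = 0.0165) was lost without XEN library A, without ES library B or without ES library C, and in DESeq2. Slc25a53 had 1.45, 1.28 and 1.43 FPKM in XEN libraries, against 1.61, 1.80 and 1.24 FPKM in ES libraries, and did not pass.

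**Figure D4:**
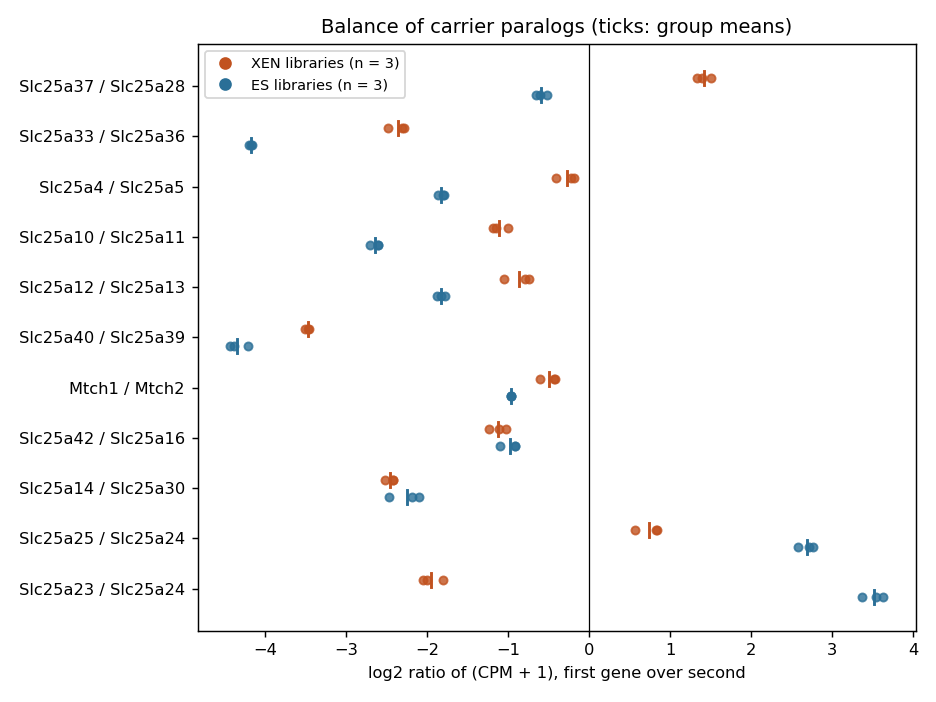
Log2 ratio of (CPM + 1) between the genes of 11 paralog pairs, one point per library, XEN libraries above ES libraries in each row; ticks are group means. In 9 pairs the XEN and ES points do not overlap, Slc25a37 / Slc25a28 and Slc25a23 / Slc25a24 lie on opposite sides of 0 in XEN and ES libraries on this CPM scale (per length, Slc25a37 was below Slc25a28 in both cell types), and the points of Slc25a42 / Slc25a16 and Slc25a14 / Slc25a30 overlap.

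Across the family, 14 paralog pairs were compared and 11 of them had both genes tested. In 9 of these 11 the XEN and ES libraries did not overlap, each with an exact permutation p of 0.1 (0.127 adjusted over 14 pairs), so none could reach 0.05 in this design. Both genes of a pair were measured in the same library, so apart from the pseudocount the ratio does not depend on library scaling. In the other 3 pairs, Slc25a31 with Slc25a5, Slc25a18 with Slc25a22 and Slc25a2 with Slc25a15, the first gene was under the filter. Of the 11 substrate groups, the summed FPKM was lower in XEN cells without overlap in 8, higher in 1, and overlapping in 2 (0.122 adjusted over 11 groups where the exact permutation p was 0.1). FPKM summed over all genes was lower in XEN libraries as well (485336 to 504981, against 538506 to 547993 in ES libraries). The direction was thus not particular to carriers. The family also made a smaller share of the counts in XEN libraries, 0.242% against 0.327% in ES libraries. The part of the general difference in the carrier sums was not tested. The lower sums of the phosphate carrier, at 350 ± 10.2 FPKM in XEN cells and 370 ± 6.35 FPKM in ES cells, and of the carnitine and amino acid group, at 52.7 ± 0.28 FPKM and 67.8 ± 1.39 FPKM in XEN and ES cells, turned to higher sums when TMM-scaled CPM was used. By RefSeq, the 50 genes lie on 19 chromosomes. Of the 4 on the X chromosome, Slc25a5 and Slc25a43 were lower in XEN cells and Slc25a14 and Slc25a53 did not pass.

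Genes that import carriers or work beside them were taken from 4 textbook lists, in which 75%, 85.7%, 100% and 84.2% of the tested genes passed, beside 88.7% of all tested genes. Of 12 tested genes of carrier import into the inner membrane, 7 were higher in XEN cells, 2 were lower and 3 did not pass. The 7 included Timm17a and Timm23, which are subunits of the neighbouring presequence translocase and not of the TIM22 complex that inserts carriers. Timm23, the most abundant of the 12 per length, averaged 258 ± 3.55 CPM in XEN cells and 178 ± 2.24 CPM in ES cells, whereas the small chaperone Timm10 averaged 6.76 ± 0.127 CPM and 14.4 ± 0.143 CPM in XEN and ES cells, and Agk, a subunit of the TIM22 complex in human cells, 26.6 ± 1.5 CPM and 49.4 ± 0.883 CPM. Timm10 and Agk were the 2 lower genes. Timm22 and Tomm70a, both chosen after their values were seen, were higher by log2 fold changes of 0.52 ± 0.05 and 0.49 ± 0.03. None of the 12 passed the test against 2-fold in either direction, beside 42.7% of all tested genes. Of 21 other mitochondrial carriers and channels, 11 were higher, 7 lower and 3 did not pass. Micu2, a gatekeeper of the calcium uniporter, was higher by a log2 fold change of 1.56 ± 0.09, while Mpc1, a subunit of the pyruvate carrier, and Tspo, an outer membrane protein, fell by 1.72 ± 0.11 and 2.48 ± 0.08. Vdac1, an outer membrane channel, averaged 391 ± 6.95 CPM in XEN cells and 736 ± 13.7 CPM in ES cells. Vdac2, another outer membrane channel, which was chosen after its values were seen, averaged 425 ± 8.30 CPM in XEN cells and 274 ± 10.6 CPM in ES cells, and was higher by a log2 fold change of 0.63 ± 0.04.

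Of 13 tested enzymes of the malate-aspartate shuttle and of citrate use, 6 were higher and 7 lower in XEN cells. Me1, the cytosolic malic enzyme, averaged 835 ± 71.7 CPM in XEN cells and 59.1 ± 1.86 CPM in ES cells. Acly, which cleaves the citrate exported by Slc25a1, averaged 271 ± 10.1 CPM in XEN cells and 606 ± 13.0 CPM in ES cells, and Gpt2, a mitochondrial alanine transaminase, 24.7 ± 7.82 CPM and 95.8 ± 3.39 CPM in XEN and ES cells. Mdh2, the mitochondrial malate dehydrogenase, was higher by a log2 fold change of 0.54 ± 0.02. Of 19 tested genes of heme and iron-sulfur cluster synthesis, which use the iron that mitoferrins import, 10 were higher, 6 lower and 3 did not pass. Cpox and Uros, enzymes of heme synthesis, and Glrx5, of iron-sulfur cluster transfer, were higher by 2.15 ± 0.04, 1.87 ± 0.13 and 1.65 ± 0.09 on the log2 scale. Hscb, a co-chaperone of cluster transfer, and Urod, another enzyme of heme synthesis, fell by 1.33 ± 0.10 and 0.75 ± 0.01.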

How the data were processed

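Total RNA of 3 XEN and 3 ES libraries was used, with groups from their titles. The authors' work used mm9, Bowtie2, RSEM and DESeq2, per the submitters' processing notes; versions, roles and the handling of reads that match more than 1 place are not given in the sources used here. Per the file headers, each deposited table gives the authors' expected counts and FPKM per gene. Counts were whole in every library for 47 of the 50 members, and 15 members have a transcript added by the authors. No per-sample columns were left unused. Genes missing from a library's table were set to 0. Strand use is not given, so reads of antisense or overlapping genes cannot be told apart.

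Expected counts were rounded to whole numbers and filtered by filterByExpr (13581 of 17710 genes kept). Libraries were scaled by TMM and compared by the edgeR 4.0.16 quasi-likelihood F test with robust dispersion (R 4.3.3), group as the only term, Benjamini-Hochberg adjustment over all tested genes at 0.05; glmTreat tested against 2-fold. CPM is TMM-scaled. Standard errors of log2 fold changes were taken from log2 CPM with a prior count of 2. The prior count narrows them at low counts, so they understate the error of genes with few counts. The common biological coefficient of variation came to 4.75%. Paralog ratios used CPM + 1 and two-sided exact permutation over 20 arrangements (scipy 1.17.1), as did summed FPKM. Where a group had 0 counts, the fold was computed with 3 counts in that group and the other group's counts as they are. It is therefore not a strict bound. Alternatives were other scalings and filters, DESeq2 1.42.0, limma-voom and limma-trend (limma 3.58.1), a replicate block, leaving out each library, other pseudocounts, and unnamed models added or left out. The fit was also run on simulated data in which only a small share of the genes changed. That run cannot test scaling or calls where most genes differ. No libraries of a group agreed within sampling noise. The members and lists were chosen with earlier results of these data known. Values per library are given for the 10 members of highest FPKM, those past 2-fold, tested genes of paralog pairs and members at 0 in a group; of each partner list, for up to 2 called genes with the largest change each way at 5 CPM or more and the most abundant. 1 member and 2 partner genes are counted but not reported here by name. Slc25a15, Slc25a30, Slc25a45, Slc25a47, Slc25a53 and the low members got values beyond this rule, as did the partner genes Vdac2, Timm22 and Tomm70a.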

Additional observations from a re-analysis of the deposited data

How the results depend on the processing

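The counts of carrier genes were within 1.5 times of those given under each alternative run: 13 to 16 higher and 19 to 25 lower in XEN cells, and 5 to 7 higher and 8 to 13 lower past 2-fold, beside 11096 to 13293 genes called in all. Upper-quartile factors moved the median log2 fold change of all genes by -0.15 and no composition factors by -0.13. With the replicate block, 12000 genes were called in all, and the carrier counts of 15, 22, 6 and 10 were unchanged; same-letter libraries deviated together with correlations of only 0.0327, 0.00761 and 0.0199, so the letters were not taken as pairs, although each XEN library correlated best with its own letter. The block changed no call of a carrier gene.

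The difference of the log2 ratio of Slc25a31 to Slc25a5, -0.16 as reported, was 0.28 with a pseudocount of 5 CPM and 0.21 in FPKM + 1. On TMM-scaled CPM the phosphate carrier was 16.8 higher and the carnitine and amino acid group 6.81 higher in XEN cells. The aspartate/glutamate sum differed by -1.82 to 0.693 FPKM as each library was left out. The log2 fold change of Slc25a11 was -0.0056 with RLE factors, -0.14 with upper-quartile factors, -0.13 without composition factors, -0.014 under a filter of 1 CPM, -0.0055 in DESeq2, -0.12 in limma-trend on FPKM, -0.0048 with unnamed models added and -0.013 without them, and -0.033 to 0.048 without single libraries. That of Slc25a3 was -0.099 with upper-quartile factors, -0.0856 without composition factors and -0.0795 in limma-trend. Slc25a11 was called lower under upper-quartile factors, no composition factors and limma-trend, and Slc25a3 under upper-quartile factors and no composition factors (adjusted p = 0.054 in limma-trend). That of Slc25a53 was -0.169 to 0.0913 without single libraries. For these genes the cause was not tested. Depth limits the 8 members under the filter, for which a difference within the counting interval was not detectable.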
